A study of Mus musculus with 2 samples.

Results

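The adipocyte lineage genes described here are 10 genes of fat cell formation and lipid storage, taken by symbol from the 51912 gene rows of the deposited counts. They comprise the transcription factors Pparg, Cebpa, Cebpd and Zfp423, the fatty acid genes Fabp4, Cd36 and Lpl, the lipid droplet coat genes Plin2 and Plin4, and the hormone gene Adipoq. Each symbol matched 1 row. RNA-seq counts were compared between 2 libraries of mouse embryonic fibroblasts (MEFs), connective tissue cells grown from embryos, on a C57BL/6 background. The UKS line is Usp16-/- and the KS line is Usp16+/+. Both lines were immortalized with SV40 T antigen (SV40T), and both received adenovirus with Cre recombinase (Ad-Cre), which deleted the floxed Usp16 alleles in UKS. Each line gave 1 library, so the differences have no replicate check and no p-values are given. Every value describes these 2 libraries, and the deletion cannot be told apart from other differences between the lines.

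Mesenchymal precursors become fat cells through a cascade of transcription factors. The early C/EBP proteins, Cebpb and Cebpd, come first and lead to Pparg and Cebpa, which sustain each other and switch on genes for taking up, carrying and storing fatty acids. Embryonic fibroblasts are a common starting material for this differentiation in culture, where it is started by hormones. No such treatment is named in the labels of these samples.

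The UKS library held 23205734 counts and the KS library 26561600 counts. Levels are CPM, the counts after scaling both libraries to the same size with TMM factors, at which 3 counts equal 0.128 CPM in UKS and 0.114 CPM in KS. Usp16 itself, a histone H2A deubiquitinase, had 459 counts (19.7 CPM) in UKS and 1195 counts (45.3 CPM) in KS, and gene-level counts cannot tell reads of the deleted exons from others. The fibroblast label was checked on 8 markers, none of which was at 0. Their sum was 20537 CPM in UKS and 18455 CPM in KS, of which Fn1 alone made up 14581.5 CPM in UKS and 8995 CPM in KS. Of the 8 markers 6 had a log2 ratio of UKS over KS below 0, and the median was −0.63. The libraries also differed in sex-linked transcripts, since Xist had 6998 counts in UKS and 1 in KS, and 4 Y-linked genes had 0 to 8 counts in UKS and 817 to 1511 in KS. With 1 library per line, the part of this difference in the results cannot be told apart from that of the deletion and was not tested.

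The upstream sequences of 4 starts are shown first, because they belong to Pparg, the central regulator of the cascade, to Cebpa and Plin2, which stood higher in UKS, and to Cd36, which had few counts in UKS and none in KS. They are RefSeq sequences of build GRCm38.p6, each the 250 bases before a transcript start, written 5′ to 3′ on the strand of the gene. RefSeq promoters were matched for 7 of the 10 members. Capitals mark matches on either strand to AGGTCA, the half-site of PPAR and other nuclear receptors, to TTNNGCAA, a C/EBP-type motif, or to TATAAA, the TATA box. No 2 matches overlap in these 4 sequences.
Pparg, chr6:115421816-115422065, plus strand: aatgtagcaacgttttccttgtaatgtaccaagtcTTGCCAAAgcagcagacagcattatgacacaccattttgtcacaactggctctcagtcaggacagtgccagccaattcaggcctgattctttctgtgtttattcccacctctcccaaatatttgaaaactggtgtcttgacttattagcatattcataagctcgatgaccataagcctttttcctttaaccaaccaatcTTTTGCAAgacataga
Cebpa, chr7:35119043-35119292, plus strand: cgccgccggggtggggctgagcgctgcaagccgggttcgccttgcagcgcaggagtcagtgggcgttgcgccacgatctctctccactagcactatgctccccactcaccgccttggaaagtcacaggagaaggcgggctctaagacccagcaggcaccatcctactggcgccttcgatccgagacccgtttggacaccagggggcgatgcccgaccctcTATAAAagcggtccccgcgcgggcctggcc
Plin2, chr4:86670060-86670309, minus strand: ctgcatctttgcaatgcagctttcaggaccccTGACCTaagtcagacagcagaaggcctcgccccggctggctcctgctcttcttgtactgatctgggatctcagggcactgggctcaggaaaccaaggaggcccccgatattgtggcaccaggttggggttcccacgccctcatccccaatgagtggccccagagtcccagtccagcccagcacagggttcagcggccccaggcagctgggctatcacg
Cd36, chr5:17835897-17836146, minus strand: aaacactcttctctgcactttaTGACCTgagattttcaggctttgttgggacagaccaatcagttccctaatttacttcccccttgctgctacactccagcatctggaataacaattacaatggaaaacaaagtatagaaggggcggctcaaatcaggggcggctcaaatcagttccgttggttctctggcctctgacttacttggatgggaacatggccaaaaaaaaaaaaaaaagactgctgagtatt
The Pparg window lies before the transcript that encodes 505 residues, the longer Pparg2 form typical of fat cells, whereas the longest transcripts from starts further upstream encode 475 residues. It held 2 matches to TTNNGCAA, at 215 to 208 and 16 to 9 bases before the start. Among 32851 promoter windows of the same length 9.56% held such a match. Plin2 and Cd36 each held 1 AGGTCA on the opposite strand, at 218 to 213 and at 228 to 223 bases before the start, a match found in 14.0% of all windows. The windows of the 2 Pparg starts further upstream and of 1 Zfp423 start, not shown, also held AGGTCA. Of these Pparg windows 1 also held TATAAA on the opposite strand. The window of the other Zfp423 start held TTNNGCAA, and those of Plin4 and Adipoq held no match. Cebpa held TATAAA at 30 to 25 bases before the start, and 12.4% of all windows held TATAAA anywhere in the window on either strand. The full direct repeat AGGTCANAGGTCA was in 11 of the 32851 windows and in none of the members' windows. A match describes the letters and is not a measured binding site.

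The adipocyte lineage genes did not share a direction. Fabp4, Cebpa, Cebpd and Plin2 were higher in UKS, Lpl and Plin4 were lower, Pparg and Zfp423 lay within 2-fold, and Cd36 and Adipoq were close to undetected. Differences were taken as log2((UKS + 1)/(KS + 1)) on CPM, on which low genes appear closer to 0 than their CPM ratio, and 2-fold is a size and not a test. A mean of at least 1 CPM was required, which 8 of the 10 members and 13015 genes in all passed. Of these 8 members 4 were at least 2-fold higher in UKS, where 5.81% of all genes tested were, and 2 were at least 2-fold lower, where 10.7% of all genes were. The median log2 ratio was 0.80 over the 8 members and 0.03 over all genes tested. Ratios of CPM below carry exact 95% intervals that cover counting error only. In bulk RNA, fewer cells that express a gene and less RNA per cell cannot be told apart.

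**Figure D1:**
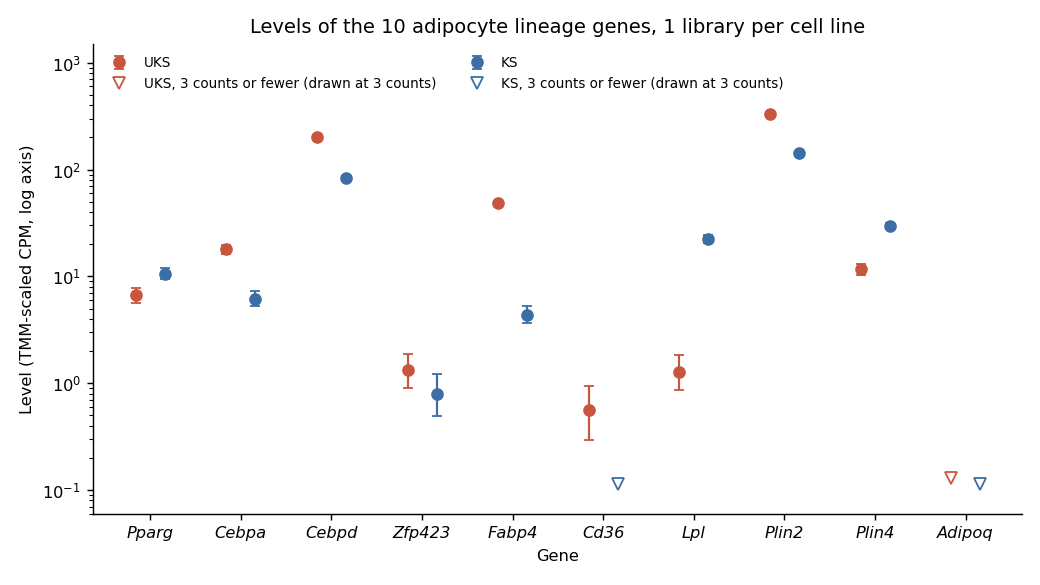
Level of each adipocyte lineage gene in the UKS library (red, left of each pair) and the KS library (blue, right), in TMM-scaled CPM on a log axis. Bars are exact 95% Poisson intervals of the count, and open triangles are genes with 3 counts or fewer, drawn at the level of 3 counts. Fabp4 and Lpl stand furthest apart, in opposite directions, at 48.2 CPM in UKS against 4.39 CPM in KS for Fabp4 and 1.28 CPM in UKS against 22.5 CPM in KS for Lpl.

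Among the transcription factors both C/EBP members were higher in UKS, while Pparg was lower but within 2-fold. Pparg (ENSMUSG00000000440; GRCm38 chromosome 6, 115360951 to 115490399, plus strand), the nuclear receptor that fat cell formation requires, had 156 counts in UKS and 279 in KS. Its level was 6.68 CPM in UKS and 10.6 CPM in KS, 1.58-fold lower in UKS [1.30 to 1.94], with a log2 ratio of −0.59. These counts sum over the 5 protein-coding transcripts that GENCODE gives the gene, so the Pparg2 start shown above was not resolved from the others. Of all genes tested 21.0% had a lower ratio than Pparg.

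Cebpd (ENSMUSG00000071637; chromosome 16, 15887286 to 15891031, plus strand), a single-exon gene whose product acts early in the cascade, had 4696 counts in UKS and 2190 in KS. That is 201 CPM in UKS and 83.0 CPM in KS, 2.42-fold higher [2.30 to 2.55], with a log2 ratio of 1.27. The deposited Cebpd values were not whole numbers, and the gene overlaps Spidr on the opposite strand, which had 1049 counts in UKS and 1183 in KS. Since use of strand in counting is not given in the sources used here, some reads of this overlap could be assigned to either gene.

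Cebpa (ENSMUSG00000034957; chromosome 7, 35119293 to 35121928, plus strand), the later C/EBP factor that maintains the fat cell state with Pparg, had 421 counts in UKS and 164 in KS. Its level was 18.0 CPM in UKS and 6.21 CPM in KS, 2.90-fold higher [2.42 to 3.50], with a log2 ratio of 1.40. Per kilobase of transcript, Cebpa stood at 2.18 times the level of Pparg in UKS and 0.476 times in KS. Per kilobase, Cebpd exceeded Cebpa 7.82 times in UKS and 9.36 times in KS. The antisense gene that overlaps Cebpa had 1 count in each library.

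Zfp423 (ENSMUSG00000045333; chromosome 8, 87661810 to 87959595, minus strand), a zinc finger factor that marks committed preadipocytes, had 31 counts in UKS and 21 in KS. At 1.33 CPM in UKS and 0.795 CPM in KS, it passed the filter only through its level in UKS. The ratio of 1.67 had an interval from 0.929 to 3.06, which includes equal levels, so a difference was not detectable at this depth.

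**Figure D2:**
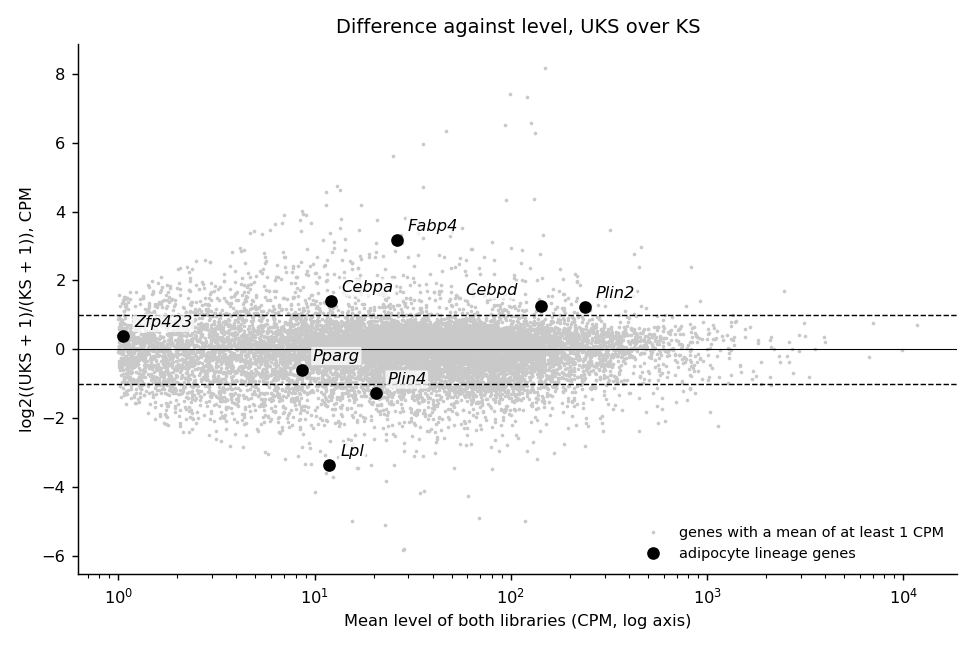
Each grey point is 1 of 13015 genes, with the mean level of both libraries in CPM on a log axis and the log2 ratio of UKS over KS on the vertical axis. Black points are the 8 adipocyte lineage genes that passed the filter, and dashed lines mark 2-fold. Fabp4 (3.19) and Lpl (−3.36) lie far out at either side of the cloud, and Zfp423 sits at its low end.

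The fatty acid genes held both the highest and the lowest ratio of the members. Fabp4 (ENSMUSG00000062515; chromosome 3, 10204088 to 10208576, minus strand), the cytosolic fatty acid carrier of fat cells and macrophages, had 1125 counts in UKS and 116 in KS. At 48.2 CPM in UKS and 4.39 CPM in KS it was 10.97-fold higher [9.05 to 13.4], and 0.369% of all genes tested had a higher ratio. Lpl (ENSMUSG00000015568; chromosome 8, 68880491 to 68907448, plus strand), the secreted lipase that frees fatty acids from lipoprotein triglyceride, had 30 counts in UKS and 595 in KS. At 1.28 CPM in UKS and 22.5 CPM in KS it was 17.5-fold lower [12.2 to 26.2], and 0.146% of all genes tested had a lower ratio. The deposited Lpl value in KS was not a whole number. Cd36 (ENSMUSG00000002944; chromosome 5, 17781690 to 17888801, minus strand), a membrane receptor that takes up fatty acids, had 13 counts in UKS and 0 in KS, at least 4.90-fold higher in UKS against a floor of 3 counts in KS, while the exact interval of the ratio starts at 3.45. Both Cd36 values lie under 1 CPM, below the filter.

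Among the other fatty acid binding protein genes near Fabp4 only Fabp5 was measured, and it lay within 2-fold. Fabp5, 187 kb away on the opposite strand, had 1554 counts (66.6 CPM) in UKS and 1555 counts (58.9 CPM) in KS, a log2 ratio of 0.17. Pmp2, Fabp9 and Fabp12, which lie 20.2, 6.81 and 35.6 kb from Fabp4, had 0 counts in both libraries. The other measured neighbours within 250 kb were Impa1, Zfand1, Chmp4c and Snx16, with log2 ratios from −0.83 to −0.01. Around all members, 83 protein-coding genes lay within 250 kb, and of 55 measured ones 1 (1.82%) was at least 2-fold higher, where 5.81% of all genes tested were, and 5 (9.09%) were at least 2-fold lower, where 10.7% were. Their median log2 ratio was 0.04. With a trend on transcript length and GC content removed by regression, 1 neighbour was higher and 1 was lower. Of 12997 genes, 5.50% were then higher and 4.99% lower.

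The perilipins, which coat lipid droplets, went opposite ways. Plin2 (ENSMUSG00000028494; chromosome 4, 86648386 to 86670060, minus strand), found on droplets of most cell types, had 7774 counts in UKS and 3766 in KS. Its level was 333 CPM in UKS and 143 CPM in KS, 2.33-fold higher [2.24 to 2.43], with a log2 ratio of 1.22. Plin4 (ENSMUSG00000002831; chromosome 17, 56100591 to 56109803, minus strand), typical of fat and muscle cells, had 272 counts in UKS and 781 in KS. Its level was 11.6 CPM in UKS and 29.6 CPM in KS, 2.54-fold lower [2.21 to 2.93], with a log2 ratio of −1.27. Per kilobase, Plin2 stood at 87.1 times Plin4 in UKS and 14.7 times in KS. Plin4 overlaps Hdgfrp2 on the opposite strand, which had 2606 counts in UKS and 2625 in KS, so a count without strand could mix their reads.

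Adipoq (ENSMUSG00000022878; chromosome 16, 23146536 to 23158028, plus strand), which encodes the fat cell hormone adiponectin, had 0 counts in UKS and 1 in KS. No fold is given, since both are under the floor of 3 counts. Of 9 adipocyte markers, Cfd and Lep had 0 counts in both libraries, Cidec had 0 in UKS and 1 in KS, Plin1 had 1 in each, and Retn had 8 in UKS and 0 in KS. The glucose transporter Slc2a4 had 38 counts in UKS and 18 in KS. The summed level of these 9 markers was 56.9 CPM in UKS and 15.8 CPM in KS, most of it from Fabp4 in UKS and from Pparg in KS.

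The order of the members by level per kilobase of transcript differed between the libraries. In UKS, Plin2 led with 176 CPM per kb, followed by Fabp4 (53.8) and Cebpd (53.7), whose counting intervals overlap. Cebpa (6.87), Pparg (3.14) and Plin4 (2.02) came next, then Lpl (0.312), Zfp423 (0.271) and Cd36 (0.164), in which neighbours overlap. In KS, Plin2 (75.6 CPM per kb) and Cebpd (22.1) led. Lpl (5.48), Plin4 (5.14), Pparg (4.97) and Fabp4 (4.90) followed in KS with overlapping intervals, ahead of Cebpa (2.37) and Zfp423 (0.162). The transcript taken for the length need not be the one expressed.

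Long and AT-rich transcripts tended to lower ratios, and short and GC-rich ones to higher ratios, which touches some of the members. The median log2 ratio was −0.81 for the 1300 genes of lowest GC content and 0.40 for the 1300 of highest. It was −0.65 for the 1300 longest transcripts and 0.38 for the 1300 shortest. With this trend removed by regression, Cebpa stood at 0.99 and Plin2 at 0.92 on the log2 scale, both within 2-fold. Cebpd stood at 1.19, Fabp4 at 3.54, Lpl at −2.92 and Plin4 at −1.30, all past 2-fold, and Pparg stood at −0.78. Thus 2 of the 8 members were higher, where 5.50% of 12997 genes were, and 2 were lower, where 4.99% of the genes were. The source of the trend was not tested.

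**Figure D3:**
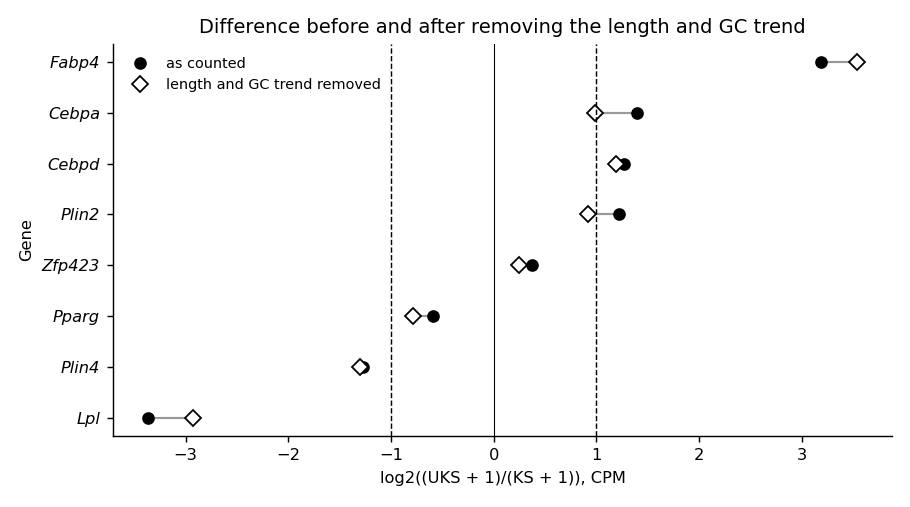
Log2 ratio of UKS over KS for the 8 measured adipocyte lineage genes as counted (filled circles) and with the trend on transcript length and GC content removed (open diamonds), with dashed lines at 2-fold. Cebpa (1.40 as counted and 0.99 with the trend removed) and Plin2 (1.22 and 0.92) cross the 2-fold line, whereas Fabp4, Lpl, Plin4 and Cebpd stay outside it.

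The rest of the adipocyte programme was described by 9 lists of 143 genes, of which 104 were measured. The lists include inhibitors of adipogenesis and surface markers, and were chosen with earlier results of these data known. In UKS 17 (16.3%) stood at least 2-fold higher, where 5.81% of all genes tested did, and 11 (10.6%) at least 2-fold lower, where 10.7% did. Inhibitors of adipogenesis gave 4 of the higher and 3 of the lower genes. The median log2 ratio of the 104 genes was 0.03, as for all genes tested. Removing the trend gave 13 higher (12.5%), where 5.50% of all genes were, and 6 lower (5.77%), where 4.99% were.

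Transcription factors and cofactors of adipogenesis went both ways. Of 27 measured genes 6 were higher, where 5.81% of all genes tested were, and 4 were lower, where 10.7% were. The median log2 ratio of this list was −0.34. Prdm16, which directs brown fat identity, had 806 counts in UKS and 229 in KS, 3.98-fold higher [3.43 to 4.63]. The zinc finger factor Egr2, which acts early in fat cell differentiation, had 366 counts in UKS and 73 in KS, 5.67-fold higher [4.40 to 7.39]. Stat5a, Cebpb, Ppard and Zfp467 were also higher, with log2 ratios of 1.46, 1.18, 1.08 and 1.04. Cebpb, the partner of Cebpd in the early step, stood at 38.6 CPM in UKS and 16.5 CPM in KS. On the lower side were the 3 Ebf factors and the coactivator Ppargc1a (19 counts in UKS and 75 in KS). Ppargc1a passed the filter only through its level in KS. Ebf2, a factor of brown preadipocytes, had 63 counts in UKS and 1746 in KS, 24.5-fold lower [19.1 to 32.0]. Ebf1 and Ebf3 were 2.77-fold and 2.97-fold lower. With the trend removed Egr2, Prdm16 and Stat5a were higher and Ebf2 and Ebf3 were lower. The PPAR partner Rxra was within 2-fold, at 133 CPM in UKS and 89.0 CPM in KS, and Rxrg had 0 counts in both libraries. Srebf1, the most abundant factor of this list, had a log2 ratio of −0.28.

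Inhibitors of adipogenesis went both ways as well. Of 17 measured genes 4 were higher, where 5.81% of all genes tested were, and 3 were lower, where 10.7% were. The median log2 ratio of this list was 0.04. The WNT ligand genes Wnt10a and Wnt6 were close to undetected in KS. Both passed the filter, and so count among the higher genes, only through their level in UKS. Wnt10a had 386 counts in UKS and 8 in KS, 54.6-fold higher [27.4 to 127], and Wnt6 had 56 counts in UKS and 2 in KS, a ratio of 31.7 [8.36 to 268]. Wnt10b, the member of this family best known to block fat cell formation, had 135 counts in UKS and 148 in KS, a log2 ratio of 0.04. Gata2, a factor that holds precursors undifferentiated, was 2.77-fold higher and Tgfb1 was 2.24-fold higher. Zfp521, which opposes the Ebf factors and Zfp423, had 214 counts in UKS and 956 in KS, 3.95-fold lower [3.40 to 4.60]. The corepressor Ncor1 and the deacetylase Sirt1, which restrain Pparg, were 2.32-fold and 2.19-fold lower. With the trend removed Wnt10a, Wnt6 and Gata2 were higher and Zfp521 was lower. Ctnnb1, the abundant beta-catenin gene, had a log2 ratio of 0.30.

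**Figure D4:**
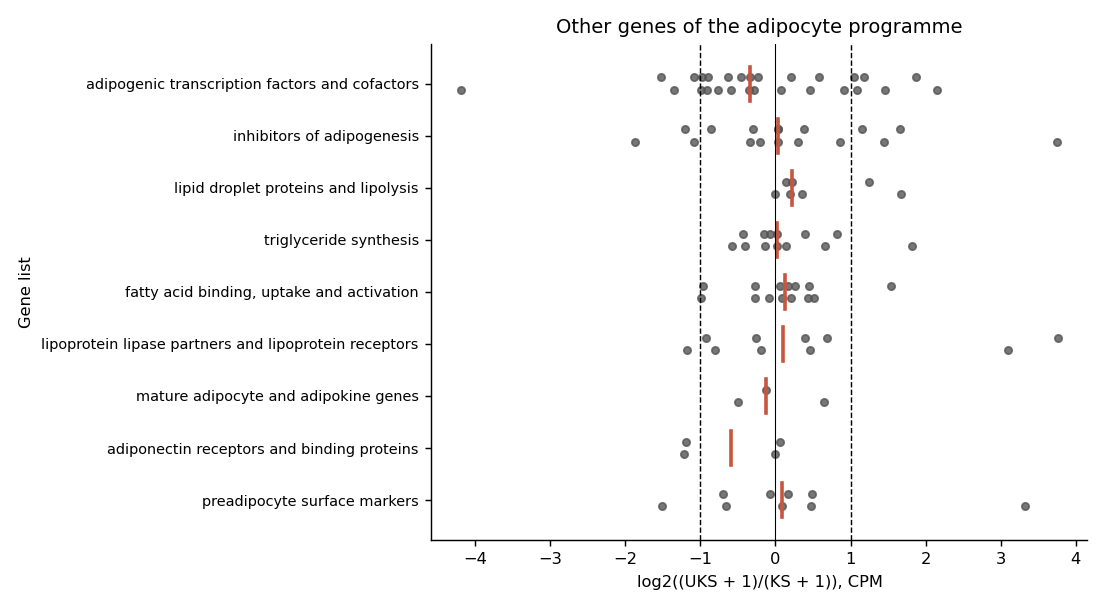
Log2 ratio of UKS over KS for each measured gene (grey points) of 9 lists of the adipocyte programme, with the median of each list as a red bar and dashed lines at 2-fold. The medians lie between −0.60 and 0.22. Each list of enzymes, transporters or droplet proteins holds most of its genes within 2-fold, where 16.5% of all genes tested were past it.

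Genes of lipid storage were mostly within 2-fold, as were most genes tested. Over all genes tested, 5.81% were higher and 10.7% lower. Of 7 measured droplet and lipolysis genes 2 were higher and none lower. Bscl2, the gene of the droplet assembly protein seipin, stood at 61.9 CPM in UKS and 18.8 CPM in KS, 3.30-fold higher [2.97 to 3.66]. Lipe, the gene of hormone-sensitive lipase, stood at 21.4 CPM in UKS and 8.41 CPM in KS, 2.55-fold higher. Plin3, the widely expressed relative of Plin2 and Plin4, stood at 117 CPM in UKS and 100.5 CPM in KS. Hilpda had a log2 ratio of 0.35. Of 13 measured genes of triglyceride synthesis 1 was higher and none lower. That gene was Dgat2, an enzyme of the last step, with 505 counts in UKS and 143 in KS, 3.99-fold higher [3.31 to 4.84]. Dgat1 and Agpat2 had log2 ratios of 0.82 and 0.66, and Gpat4, the most abundant, 0.03.

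Of 14 measured genes of fatty acid binding, uptake and activation 1 was higher and none lower. The shares of all genes tested were 5.81% higher and 10.7% lower. Slc27a1, the fatty acid transporter FATP1, stood at 79.7 CPM in UKS and 26.7 CPM in KS, 2.98-fold higher [2.74 to 3.26]. The acyl-CoA synthetase genes Acsl3 and Acsl4 lay just inside 2-fold, with log2 ratios of −0.99 and −0.96, and −0.55 and −0.05 with the trend removed. Scarb2, the most abundant gene of the list and a relative of Cd36, had a log2 ratio of 0.07.

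Among 10 measured partners of lipoprotein lipase and lipoprotein receptors 2 were higher and 1 lower. The shares of all genes tested were 5.81% higher and 10.7% lower. Angptl4, a secreted inhibitor of lipoprotein lipase and a PPAR target, had 926 counts in UKS and 53 in KS, 19.8-fold higher [15.0 to 26.6]. The apolipoprotein gene Apoe had 1190 counts in UKS and 134 in KS, 10.04-fold higher [8.39 to 12.1]. Gpihbp1, which anchors lipoprotein lipase on capillaries, had 0 counts in both libraries. Lrp1, the most abundant gene of the list, had a log2 ratio of −0.20.

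Of 13 mature adipocyte and adipokine genes 3 were measured, Nampt, Apln and Slc2a4, with log2 ratios of −0.50, −0.12 and 0.64. Among 4 genes for adiponectin receptors and binding proteins 2 were lower, where 10.7% of all genes tested were. The adiponectin-binding cadherin Cdh13 was 2.37-fold lower, and the adaptor Appl1 was 2.32-fold lower as counted and at −0.23 on the log2 scale with the trend removed. The receptor Adipor1 stood at 149 CPM in UKS and 143 CPM in KS. Of 9 measured preadipocyte surface markers 1 was higher and 1 lower, where 5.81% and 10.7% of all genes tested were. Icam1 had 1187 counts in UKS and 111 in KS, 12.1-fold higher [9.95 to 14.8]. Pdgfra had 2471 counts in UKS and 7982 in KS, 2.86-fold lower [2.73 to 2.99]. Cd81 and F3 had log2 ratios of 0.48 and −0.70.

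Several members are also expressed by macrophages and endothelial cells, so markers of those cells were read beside them. The 8 macrophage and blood cell markers with a single row summed to 67.7 CPM in UKS and 25.0 CPM in KS. Of this Cd14, which was 3.32-fold higher [2.99 to 3.68], made up 62.3 CPM in UKS and 18.8 CPM in KS. The defining genes Adgre1, Tyrobp and Fcer1g had 0 counts in both libraries, Ptprc had 1 in UKS and 2 in KS, and Csf1r had 8 in UKS and 7 in KS. Cd68 had 113 counts in UKS and 154 in KS. The 6 endothelial markers summed to 2.14 CPM in UKS and 2.73 CPM in KS, with 19 counts in UKS and 38 in KS for Kdr, 6 in UKS and 3 in KS for Pecam1, and none in either library for Cldn5. The 5 skeletal muscle markers summed to 1.07 CPM in UKS and 0.227 CPM in KS, with Myog at 0 in both. Among the fibroblast markers Thy1 and Pdgfra were 4.71-fold and 2.86-fold lower in UKS, Col1a2 had a log2 ratio of −0.86 and Fn1, the most abundant, one of 0.70.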

How the data were processed

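Total RNA of 2 MEF libraries was sequenced after TruSeq library preparation, per the labels' protocols. The submitters' processing notes list HISAT2 and StringTie with build GRCm38.p5 and assign them no role. For the counting program and its use of strand, the sources used here give no answer. The authors deposited, for each library, an estimated count for every gene, with no scaling to depth. Of the values above 0, 21.5% in UKS and 23.1% in KS were not whole, and all were rounded. The UKS library had 19105 genes above 0 and the KS library 20156.

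TMM factors came from edgeR 4.0.16 in R 4.3.3, and intervals from scipy 1.17.1 (Clopper-Pearson for ratios, exact Poisson for counts, 95%). With 1 library per group no test was made. GENCODE M21 (GRCm38) gave positions, GC content and transcript length and held 51633 of the 51912 gene identifiers. The length and GC trend was a robust regression (statsmodels 0.14.6, Tukey's biweight, cubic terms) fitted on genes outside the members and lists. The fitted trend was subtracted from the log2 ratios of members and listed genes as well, so a true difference tied to these properties is removed too. The 8 alternatives included total-count CPM, upper-quartile factors and DESeq2 1.42.0 size factors.

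The members and lists were chosen with earlier results of these data known. The text names all members, the 3 genes per list with the largest absolute log2 ratio and the most abundant gene. Other listed genes past 2-fold, neighbours, markers and listed genes at low counts were named after their values were seen. A symbol on several rows was not used. A listed gene that this rule takes in, and another allele that both lines carry, are not reported here.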

Additional observations from a re-analysis of the deposited data

How the results depend on the processing

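No paired analysis was possible because each group has 1 library. Of 127 values recomputed under 8 alternatives 109 kept their size within counting error, or within 1.5 times for counts, 18 moved and none reversed. A change of the filter cannot alter the log2 ratio of a single gene, so those values kept their size in advance. A count of genes has no direction, so reversal bears only on the log2 ratios. Total-count, DESeq2 and upper-quartile scaling shifted the median log2 ratio of all genes by 0.02, −0.03 and 0.04 and moved no member's value beyond its counting error. With the length and GC trend removed, the members at least 2-fold higher came to 2 and the listed genes at least 2-fold lower to 6, the genes at least 2-fold lower to 648 (715 were higher), Cebpa to 0.99, Cebpd to 1.19, Fabp4 to 3.54, Plin2 to 0.92 and the members' median to 0.58. A pseudocount of 5 CPM gave 412 genes higher and 836 lower, and log2 ratios of 1.04 for Cebpa, 2.50 for Fabp4, −2.13 for Lpl and −1.05 for Plin4, as a larger pseudocount shrinks ratios of low genes. The members' median was 0.86 with a pseudocount of 0.5 CPM, 0.58 with 5 CPM, 0.51 with no filter and 1.22 with a mean of at least 5 CPM, where Zfp423 drops out. Depth limits Adipoq, Cd36 and Zfp423, and with 1 library per line the variation between cultures is unknown.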

Other observations

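Ucp1, the uncoupling protein that defines brown fat cells, had 1 count in UKS and 20 in KS, 17.7-fold lower in UKS with a counting interval from 2.83 to 733. It lay under 1 CPM in both libraries and was named after its values were seen. Rbp4, which encodes a retinol carrier made by liver and fat, had 37 counts in UKS and 8 in KS, 5.23-fold higher [2.40 to 13.0], below the filter.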
